A study of Mus musculus with 28 samples.

Results

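The data described here are 10 of the 28 arrays of a mouse study that profiled skeletal muscle RNA after interleukin 1b (IL-1b, an inflammatory cytokine) was injected into the ventricles of the brain. The arrays were chosen by their titles as all those taken 2 h after injection. They are 5 arrays of muscle after IL-1b (replicates 2, 4, 8, 10 and 12) and 5 after vehicle (replicates 1, 5, 7, 9 and 11). Further arrays were taken at 4 h (5 after IL-1b, 5 after vehicle) and 8 h (3 and 5). The labels used here do not give strain, sex, age, dose, vehicle or which muscle was sampled. They also do not say whether each array holds a different mouse, and p-values therefore measure the spread between these samples. Muscle was profiled whole, and in such bulk RNA fewer cells of a type and less RNA per cell cannot be told apart. The deposited values were taken as log2 intensities, where a probe set is the group of probes that stands for a transcript. The log base is not given in the sources used here, and every fold printed rests on it. Each probe set has a median of 0 over the 28 arrays, so the values are relative. A value near 0 therefore means near that probe set's median over the 28 arrays, and no level can be compared between genes or set against the defining markers of muscle.

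IL-1b acts through its receptor and the adaptor MyD88 on the kinases that release NF-kB, a transcription factor held in the cytoplasm by inhibitor proteins. In small blood vessels, NF-kB switches on selectins and adhesion molecules, which slow and arrest leukocytes, and chemokines, which draw them out of the blood. It also switches on its own inhibitors, so that the response is brief. IL-1b in the brain is known to activate the hypothalamus, pituitary and adrenal axis, which raises glucocorticoids in the blood, and glucocorticoids induce a separate set of genes in muscle.

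The genes that rose in muscle 2 h after IL-1b included 3 of leukocyte adhesion (Selp, Icam1 and Vcam1), 2 of NF-kB feedback (Nfkbia and Tnfaip3) and 1 of neutrophils (Retnlg). Most measured members of those groups did not pass, and few genes passed as lower. Over all 10 arrays, 10 of 17831 probe sets were higher (0.0561% of those tested) and 3 were lower (0.0168%) at an adjusted p under 0.01 in limma. One IL-1b array, replicate 2, read close to vehicle for the adhesion genes. Without it, 32 probe sets were higher (0.179%) and 8 lower (0.0449%), and all 13 calls over all arrays were among them. With a further quantile normalization between arrays, the calls without it were 52 higher and 58 lower. That array was left out because of its measured adhesion genes, so adjusted p-values without it are not independent of the choice, and they are given beside those over all arrays. Every IL-1b array lay above every vehicle array for 197 probe sets (1.10%) and below for 233 (1.31%). When limma was fitted to the 2 h arrays alone, 0 probe sets passed (lowest adjusted p = 0.0150), with 2434 at an unadjusted p under 0.05, against 1885 (10.6%) in the model of all 28 arrays. Of the 10 higher probe sets, 9 have 1 gene symbol, and the other, which has none listed here, differed by 0.83 on the log2 scale (adjusted p = 0.00632). The lowest difference of the genes shown was that of Cish, a feedback inhibitor of STAT5 signalling, which did not pass (-1.24 ± 0.61, SE, adjusted p = 0.474).

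**Figure D1:**
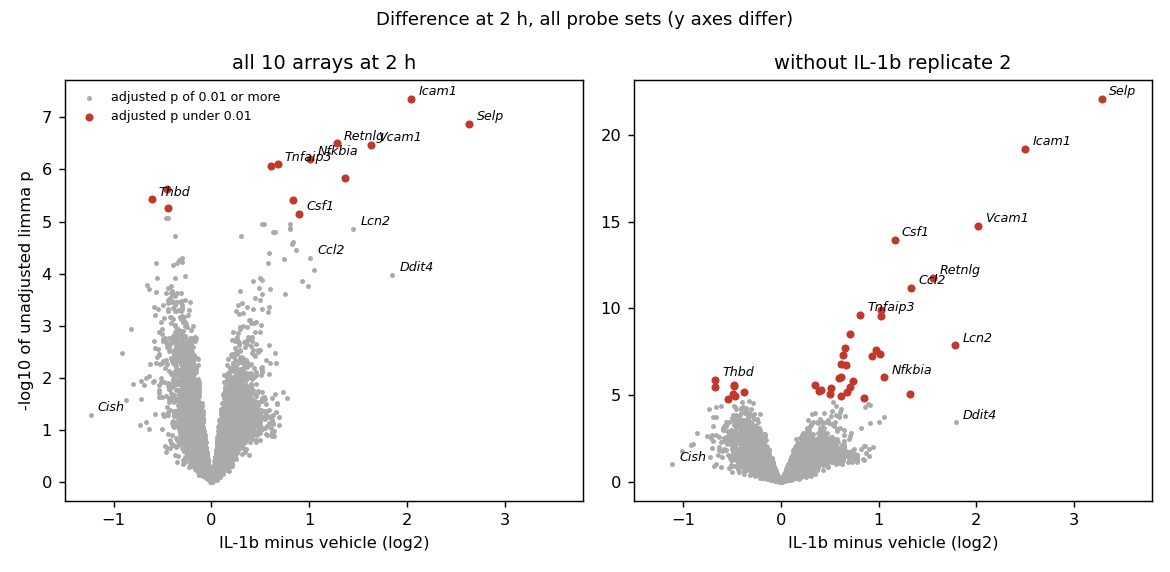
Difference between IL-1b and vehicle at 2 h (horizontal axis, log2) against -log10 of the unadjusted p (vertical axis) for 17831 probe sets, over all 10 arrays and without IL-1b replicate 2; red points passed an adjusted p of 0.01. Among red points Selp, Icam1 and Vcam1 lie farthest to the right in both plots, and 13 probe sets passed over all arrays against 40 without replicate 2. The vertical axes differ between the plots.

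Genes of both named inhibitors of NF-kB signalling rose. Nfkbia encodes IkB alpha, which holds NF-kB in the cytoplasm, and Tnfaip3 encodes A20, a ubiquitin-editing enzyme that ends signalling to NF-kB. Centred Nfkbia read -0.68, -0.13, -0.0018, 0.01 and -0.07 on vehicle replicates 1, 5, 7, 9 and 11, 0.64 on IL-1b replicate 2 and 0.73, 0.99, 0.95 and 0.87 on IL-1b replicates 4, 8, 10 and 12. Every IL-1b array, replicate 2 included, was above every vehicle array. Nfkbia rose by 1.01 ± 0.15 (log2 difference with its SE, 5 arrays per group, 2.01-fold, limma adjusted p = 0.00214). Centred Tnfaip3 read 0.07, -0.03, 0.06, -0.07 and 0.03 on vehicle replicates 1, 5, 7, 9 and 11, 0.15 on IL-1b replicate 2 and 0.69, 0.85, 0.96 and 0.80 on IL-1b replicates 4, 8, 10 and 12. Replicate 2 was the lowest IL-1b array and lay just above the vehicle arrays. Tnfaip3 rose by 0.68 ± 0.11 (adjusted p = 0.00214) and differed by 0.81 ± 0.08 without replicate 2. The call of Nfkbia was lost without IL-1b replicate 8 or 10 (adjusted p = 0.0126 and 0.0120), and that of Tnfaip3 without replicate 8, 10 or 12 (adjusted p from 0.0105 to 0.0148).

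Of 23 measured genes for NF-kB subunits, inhibitors and feedback proteins, 2 rose over all arrays, 0 fell and 21 did not pass. At an unadjusted p under 0.05 over all arrays there were 13 (56.5%), against 10.6% of all probe sets. The median difference was 0.24 over the list and -0.02 over all probe sets, and 19 of the 23 differences were above 0. Without replicate 2, Birc3, an inhibitor of apoptosis that NF-kB induces, and Zc3h12a, the RNase regnase-1 that destroys inflammatory mRNAs, passed as well. Birc3 differed by 0.54 ± 0.10 over all arrays (adjusted p = 0.0112) and by 0.66 ± 0.08 without that array. Zc3h12a differed by 0.42 ± 0.09 (adjusted p = 0.0536) and by 0.51 ± 0.09 (adjusted p = 0.00234), a call that ended when IL-1b replicate 10 was also left out. Bcl3, a nuclear member of the inhibitor family, differed by 0.43 ± 0.11 over all arrays and did not pass in either fit.

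Promoters of these genes show where the letters of a kappa B type site, the DNA that NF-kB proteins bind, lie. The letters GGANTTNCC were searched on both strands of the 300 bases from 250 before to 50 after each gene's start, in RefSeq promoters of the build GRCm38.p6. Of the 9 named genes that rose over all arrays, 8 have a promoter in that table, and 4 of the 8 (50%) hold the letters, among them both inhibitor genes. Of all 32851 promoters in the table, 3.95% hold them, and 4.54% of its 27025 genes have at least 1 such promoter. The share was 37.5% (9 of 24) for genes that were higher in either fit and 0 of 6 for genes that were lower. The 4 promoters with a match follow, with the Selp promoter, which has none, because Selp had the largest difference of the 37 named genes. Capitals mark each match as it reads on the gene's strand. A match is a run of letters and not a shown binding site. The letters are a shortened motif, so a promoter without a match is not shown to lack a binding site.
Nfkbia (chr12:55492598-55492897, minus strand; matches 178 and 29 bases before the start): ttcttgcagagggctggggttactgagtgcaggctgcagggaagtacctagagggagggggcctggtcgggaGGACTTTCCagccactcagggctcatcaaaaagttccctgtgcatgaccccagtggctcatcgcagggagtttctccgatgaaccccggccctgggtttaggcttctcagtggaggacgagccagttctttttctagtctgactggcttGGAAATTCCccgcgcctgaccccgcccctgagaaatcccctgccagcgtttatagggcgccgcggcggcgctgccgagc
Tnfaip3 (chr10:19015361-19015660, minus strand; match 24 bases before the start; the other Tnfaip3 promoter in the table has none): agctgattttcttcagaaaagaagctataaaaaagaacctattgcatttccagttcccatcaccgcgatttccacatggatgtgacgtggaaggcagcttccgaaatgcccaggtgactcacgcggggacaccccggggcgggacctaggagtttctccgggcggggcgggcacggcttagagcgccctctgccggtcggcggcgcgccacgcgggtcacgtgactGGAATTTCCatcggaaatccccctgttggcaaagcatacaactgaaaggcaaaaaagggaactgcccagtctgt
Icam1 (chr9:21015690-21015989, plus strand; match 153 bases before the start): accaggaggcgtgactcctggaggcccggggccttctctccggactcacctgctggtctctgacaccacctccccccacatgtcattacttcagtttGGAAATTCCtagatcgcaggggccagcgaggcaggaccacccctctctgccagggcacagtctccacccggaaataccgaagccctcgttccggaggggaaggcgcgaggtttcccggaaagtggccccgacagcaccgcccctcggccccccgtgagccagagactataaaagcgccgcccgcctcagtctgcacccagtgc
Csf1 (chr3:107760420-107760719, minus strand; match 154 bases before the start): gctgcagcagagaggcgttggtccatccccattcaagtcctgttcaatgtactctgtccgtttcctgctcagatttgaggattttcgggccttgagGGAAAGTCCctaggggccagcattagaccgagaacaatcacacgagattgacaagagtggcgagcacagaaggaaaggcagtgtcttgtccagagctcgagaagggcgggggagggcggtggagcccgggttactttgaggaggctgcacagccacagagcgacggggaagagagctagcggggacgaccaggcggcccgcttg
Selp (chr1:164115014-164115313, plus strand; no match): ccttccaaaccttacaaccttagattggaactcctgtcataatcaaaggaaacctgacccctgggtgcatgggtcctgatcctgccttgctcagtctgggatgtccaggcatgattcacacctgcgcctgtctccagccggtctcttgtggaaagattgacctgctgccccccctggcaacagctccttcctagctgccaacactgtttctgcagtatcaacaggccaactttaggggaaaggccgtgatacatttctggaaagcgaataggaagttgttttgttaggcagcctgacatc

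Selp, Icam1 and Vcam1 were the adhesion genes that rose. Selp encodes P-selectin, on which leukocytes roll along activated endothelium. Centred Selp read -0.46, -0.23, -0.24, -0.34 and -0.47 on vehicle replicates 1, 5, 7, 9 and 11, -0.29 on IL-1b replicate 2 and 2.87, 3.01, 2.92 and 2.94 on IL-1b replicates 4, 8, 10 and 12. The other 4 IL-1b arrays stood together far above all vehicle arrays, while replicate 2 lay inside the vehicle range. Selp rose by 2.64 ± 0.37 over all arrays (6.23-fold, adjusted p = 0.00119) and differed by 3.28 ± 0.09 without replicate 2 (9.73-fold, adjusted p = 1.51e-18). 

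Icam1 encodes a ligand of leukocyte integrins that arrests rolling cells. Centred Icam1 read 0.15, -0.25, 0.15, 0.04 and -0.21 on vehicle replicates 1, 5, 7, 9 and 11, 0.19 on IL-1b replicate 2 and 2.40, 2.64, 2.57 and 2.29 on IL-1b replicates 4, 8, 10 and 12. Replicate 2 was a little above the highest vehicle array and well below the other IL-1b arrays. Icam1 rose by 2.04 ± 0.27 (4.12-fold, adjusted p = 0.000783) and differed by 2.50 ± 0.09 without that array (5.65-fold, adjusted p = 5.69e-16). Vcam1 encodes the ligand of the integrin VLA4 of monocytes and lymphocytes, and satellite cells of muscle are known to carry it too. Centred Vcam1 read -0.22, -0.0093, -0.18, -0.0091 and -0.20 on vehicle replicates 1, 5, 7, 9 and 11, -0.04 on IL-1b replicate 2 and 1.93, 1.93, 1.93 and 1.79 on IL-1b replicates 4, 8, 10 and 12. Its pattern was that of Selp, with replicate 2 among the vehicle arrays. Vcam1 rose by 1.63 ± 0.24 (adjusted p = 0.00151) and differed by 2.02 ± 0.12 without replicate 2. Its call was lost without IL-1b replicate 8 or 10 (adjusted p = 0.0115 and 0.0113).

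E-selectin, the other selectin of endothelium, did not pass over all arrays in the unweighted model. Its gene Sele differed by 0.51 ± 0.12 over all arrays (adjusted p = 0.0687) and by 0.67 ± 0.09 without replicate 2 (adjusted p = 0.000179). It also passed with replicate 2 kept when limma weighted the arrays (0.64, adjusted p = 0.000142). That call is not independent of leaving replicate 2 out, because the weights were estimated from these same values and gave that array 0.57. Their estimate also stopped before it converged. Of 17 measured adhesion genes, 3 rose over all arrays and 4 without replicate 2, 0 fell in either fit, and the median difference was -0.04. Differences of 11 of the 17 were below 0. In either direction, 6 of the 17 (35.3%) had an unadjusted p under 0.05 over all arrays, against 10.6% of all probe sets. The mean of the list was -0.0041 on replicate 2, between -0.056 and 0.0588 on the vehicle arrays, and between 0.420 and 0.448 on the other 4 IL-1b arrays.

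**Figure D2:**
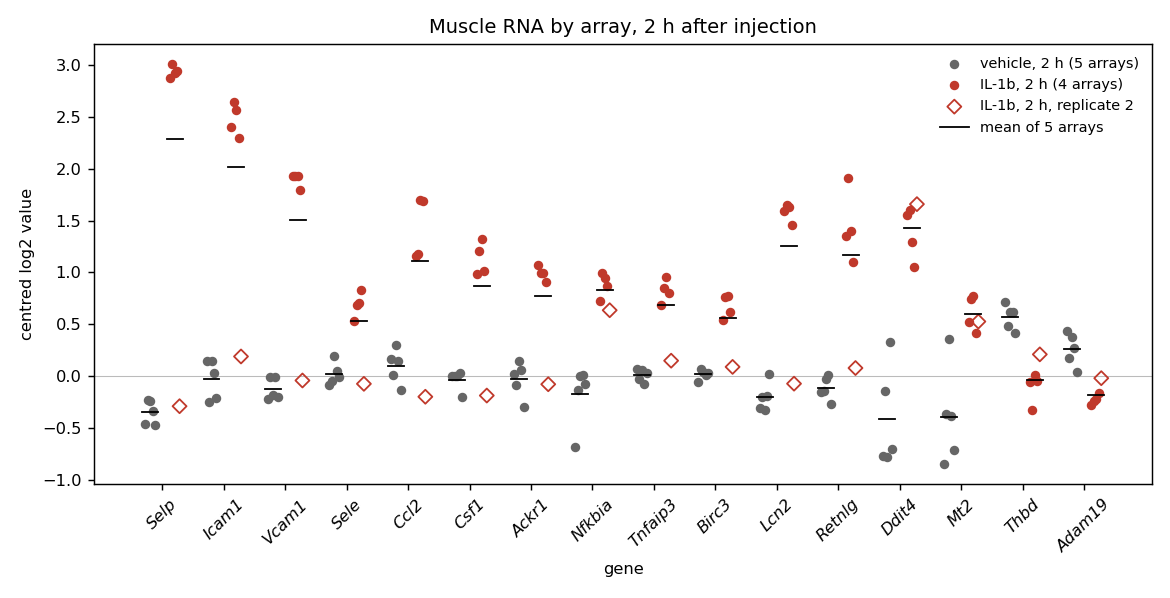
Centred log2 value (vertical axis) of named genes on each of the 10 arrays at 2 h, with vehicle and IL-1b arrays side by side and IL-1b replicate 2 marked apart; bars show group means. For Selp, 4 IL-1b arrays sit between 2.87 and 3.01, and replicate 2 sits at -0.29, among the vehicle arrays.

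Csf1 was the colony factor that rose. It encodes the growth factor of monocytes and macrophages. Centred Csf1 read 0.0039, 0.002, 0.0036, 0.03 and -0.20 on vehicle replicates 1, 5, 7, 9 and 11, -0.19 on IL-1b replicate 2 and 0.99, 1.21, 1.32 and 1.01 on IL-1b replicates 4, 8, 10 and 12. Replicate 2 lay inside the vehicle range. Csf1 rose by 0.90 ± 0.16 over all arrays (adjusted p = 0.00979), close to the threshold, and differed by 1.16 ± 0.07 without replicate 2 (adjusted p = 5.1e-11). The call over all arrays was lost when any array other than IL-1b replicate 2 was left out (adjusted p from 0.0213 to 0.0550).

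Chemokine genes did not pass over all arrays in the unweighted model. Ccl2, Ackr1, Cx3cl1 and Ccl11 passed when replicate 2 was left out, and also with it kept under limma's array weights (adjusted p = 0.000109, 2.64e-05, 0.000142 and 0.00494). The weights were estimated from these same values and gave replicate 2 a weight of 0.57, or 0.61 gene by gene. These calls are therefore not independent of leaving that array out, and the weighted difference of Ccl2 was 1.26. The estimate of those weights stopped before it converged, and weights estimated gene by gene gave the same 4 calls. Ccl2 encodes the main attractant of monocytes. Centred Ccl2 read 0.16, 0.0074, 0.30, 0.14 and -0.14 on vehicle replicates 1, 5, 7, 9 and 11, -0.20 on IL-1b replicate 2 and 1.16, 1.18, 1.70 and 1.69 on IL-1b replicates 4, 8, 10 and 12. Replicate 2 lay below the lowest vehicle array. Ccl2 differed by 1.01 ± 0.21 over all arrays (adjusted p = 0.029) and by 1.34 ± 0.11 without it (adjusted p = 1.91e-08). Ackr1, the chemokine-binding receptor of venules and red cells, differed by 0.81 ± 0.15 (adjusted p = 0.0112) and by 1.02 ± 0.10 without replicate 2 (adjusted p = 3.37e-07). Cx3cl1, a chemokine tethered to the endothelial membrane, differed by 0.49 ± 0.11 and 0.64 ± 0.08 in the same way (adjusted p = 5.97e-05 without that array). Ccl11, an attractant of eosinophils, passed without replicate 2 (0.50 ± 0.09, adjusted p = 0.00449), and lost the call for 7 of the other 9 arrays left out in turn. Of 27 chemokine and colony factor genes, 1 rose over all arrays and 5 without replicate 2, 0 fell, and the median difference was 0.02. At an unadjusted p under 0.05 over all arrays there were 9 (33.3%), against 10.6% of all probe sets. Cxcl1, an attractant of neutrophils, differed by 0.0084 ± 0.11, and its sign turned without vehicle replicate 5, IL-1b replicate 4 or IL-1b replicate 8.

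Genes of the cytokines themselves did not pass. Il1b differed by 0.17 ± 0.08 over all arrays, Il6 by 0.06 ± 0.05 and Tnf by 0.05 ± 0.13 (adjusted p from 0.459 to 0.88). Centred values cannot tell whether these transcripts were above background in muscle. Of 23 genes for IL-1, IL-6, TNF and their receptors and adaptors, 0 passed over all arrays (5, or 21.7%, at an unadjusted p under 0.05, against 10.6% of all probe sets). Irak2, a kinase downstream of the IL-1 receptor, passed without replicate 2 at 0.35 ± 0.06 (adjusted p = 0.00196), against 0.30 ± 0.06 over all arrays (adjusted p = 0.0137), and every IL-1b array lay above every vehicle array. That call ended when IL-1b replicate 8 or 10 was also left out. Socs3, the feedback inhibitor of IL-6 signalling, differed by -0.09 ± 0.14 (adjusted p = 0.806).

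Transcripts of neutrophils stood beside the adhesion genes. Retnlg is a resistin-like gene of neutrophils. Centred Retnlg read -0.15, -0.14, -0.03, 0.02 and -0.27 on vehicle replicates 1, 5, 7, 9 and 11, 0.08 on IL-1b replicate 2 and 1.36, 1.91, 1.40 and 1.10 on IL-1b replicates 4, 8, 10 and 12. All 5 IL-1b arrays were above the vehicle arrays, and replicate 2 was the nearest to them. Retnlg rose by 1.28 ± 0.19 (2.43-fold, adjusted p = 0.00151) and differed by 1.55 ± 0.12 without replicate 2. Its call was lost without IL-1b replicate 10 (adjusted p = 0.0113). Lcn2 encodes lipocalin 2, an iron-scavenging protein of neutrophil granules that other cells also make in inflammation. Centred Lcn2 read -0.30, -0.20, -0.32, -0.19 and 0.02 on vehicle replicates 1, 5, 7, 9 and 11, -0.07 on IL-1b replicate 2 and 1.59, 1.65, 1.63 and 1.46 on IL-1b replicates 4, 8, 10 and 12. Replicate 2 read like vehicle. Lcn2 differed by 1.45 ± 0.27 over all arrays (adjusted p = 0.0119) and by 1.78 ± 0.22 without it (adjusted p = 2.25e-05).

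Mmp8, the collagenase of neutrophil granules, differed by 0.80 ± 0.15 (adjusted p = 0.0119) and by 0.98 ± 0.12 without replicate 2 (adjusted p = 3.56e-05). Cxcr2, the receptor by which neutrophils follow CXC chemokines, differed by 0.59 ± 0.12 (adjusted p = 0.025) and by 0.68 ± 0.12 (adjusted p = 0.00357), a call lost for 4 of the other 9 arrays. The abundant cytosolic pair S100a8 and S100a9 did not pass in either fit, at 0.17 ± 0.08 and 0.46 ± 0.12 over all arrays. Of 27 measured neutrophil markers, 1 rose over all arrays and 4 without replicate 2, 0 fell, and 19 differences were above 0 (median 0.11). Over all arrays, 12 of the 27 (44.4%) had an unadjusted p under 0.05, against 10.6% of all probe sets. The mean of the list ran from -0.144 to 0.0141 on vehicle arrays, was 0.0126 on replicate 2, and ran from 0.154 to 0.282 on the other 4. On the 10 vehicle arrays at 4 and 8 h it ran from -0.181 to 0.220. On replicate 2 the mean of the neutrophil list was thus within the vehicle range, although Retnlg and Cxcr2 lay above every vehicle array there. That array was singled out by its adhesion genes, so its low adhesion mean is not a separate result. The part of neutrophil number in the other differences was not tested.

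Other genes that passed without replicate 2 belong to several classes. Irf1, a transcription factor of the interferon response, differed by 0.62 ± 0.10 (adjusted p = 0.000821), and Gbp5, a GTPase that interferons induce, by 0.71 ± 0.12 (adjusted p = 0.00219). They were the 2 of 26 interferon and antigen presentation genes that passed, none over all arrays, where Irf1 differed by 0.50 ± 0.11 and Gbp5 by 0.63 ± 0.12. Over all arrays, 7 of the 26 (26.9%) had an unadjusted p under 0.05, against 10.6% of all probe sets. Ch25h, the enzyme that makes 25-hydroxycholesterol, differed by 0.74 ± 0.12 without replicate 2 (adjusted p = 0.00115), and Icosl, the ligand of the T cell receptor ICOS, by 0.62 ± 0.09 (adjusted p = 0.000165). Neurl3, a ubiquitin ligase gene, differed by 0.93 ± 0.12. Casp4, an inflammatory caspase, Csf2rb, the shared beta chain of the receptors for IL-3, IL-5 and GM-CSF, and Slc10a6, a transporter of sulphated steroids, also passed without replicate 2, at 0.61 ± 0.11, 0.39 ± 0.07 and 0.86 ± 0.16. Those 3 calls each ended when 1 of 5 to 7 of the other arrays was left out, and that of Gbp5 ended without IL-1b replicate 8. Of the 29 named genes higher without replicate 2, 20 kept the call whichever of the other 9 arrays was also left out. For 26 of the 29, the 4 IL-1b arrays used also lay above all 10 vehicle arrays at 4 and 8 h. For the 8 lower genes, those 4 arrays lay outside the range of the later vehicle arrays for 4. The genes were chosen for their values on the same 4 arrays. The share over all probe sets was not computed, so these counts are a description.

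Few genes passed as lower, although every IL-1b array lay below every vehicle array for 233 probe sets (1.31%), against 197 (1.10%) above. Thbd encodes thrombomodulin, the endothelial receptor that turns thrombin to an anticoagulant role. Centred Thbd read 0.72, 0.49, 0.62, 0.62 and 0.42 on vehicle replicates 1, 5, 7, 9 and 11, 0.21 on IL-1b replicate 2 and -0.05, -0.33, 0.01 and -0.04 on IL-1b replicates 4, 8, 10 and 12. Every IL-1b array, replicate 2 included, was below every vehicle array. Thbd fell by 0.61 (log2, with SE 0.10, adjusted p = 0.00632), and by 0.67 without replicate 2. Adam19 encodes a membrane metalloprotease. Centred Adam19 read 0.44, 0.17, 0.37, 0.27 and 0.04 on vehicle replicates 1, 5, 7, 9 and 11, -0.02 on IL-1b replicate 2 and -0.28, -0.24, -0.22 and -0.16 on IL-1b replicates 4, 8, 10 and 12. Here too the groups did not overlap, and replicate 2 was the IL-1b array nearest to vehicle. Adam19 fell by 0.44 (SE 0.08, adjusted p = 0.00824), and Sertad4 fell by 0.45 (SE 0.08, adjusted p = 0.00477). For Sertad4, too, the groups did not overlap. Thbd and Adam19 each lost the call when any of 8 arrays was left out (adjusted p from 0.0114 to 0.0393), the exceptions being vehicle replicate 11 and IL-1b replicate 2. Sertad4 lost it for 5 arrays, vehicle replicates 1 and 7 and IL-1b replicates 4, 8 and 10 (adjusted p from 0.0170 to 0.0318).

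Without replicate 2, Tmem88, Hspa12b, Hic1, Anpep and Pdxk were also lower. Tmem88 differed by -0.67 (limma adjusted p = 0.00217). Hspa12b, an endothelial member of the HSP70 family, differed by -0.54, Hic1, a transcriptional repressor, by -0.49, Anpep, aminopeptidase N, by -0.47, and Pdxk, pyridoxal kinase, by -0.38 (adjusted p from 0.00372 to 0.00732). Each of the 8 lower genes lost its call for at least 1 further array left out.

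**Figure D3:**
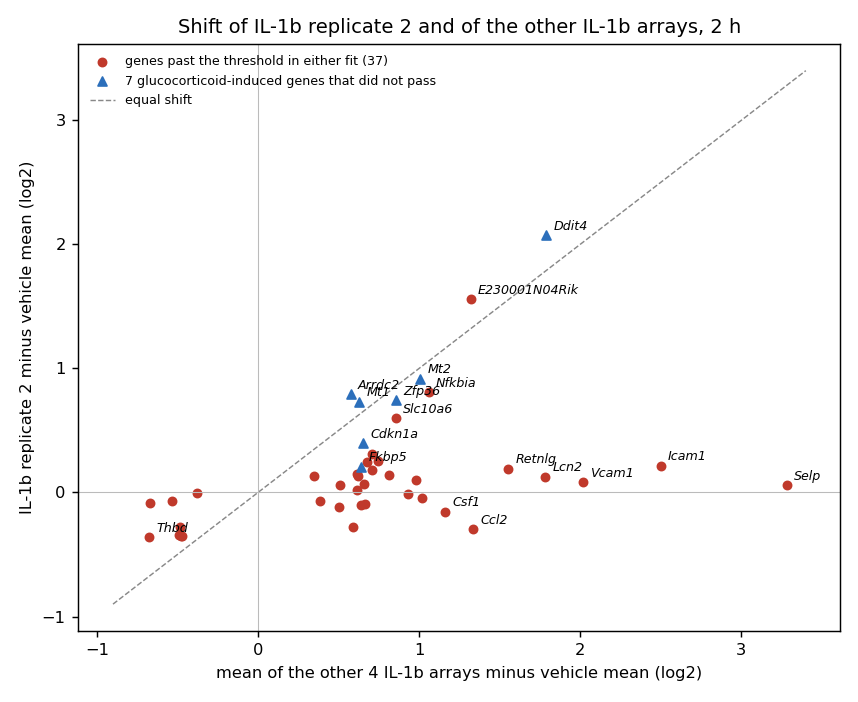
Shift of IL-1b replicate 2 from the vehicle mean (vertical axis, log2) against the mean shift of the other 4 IL-1b arrays (horizontal axis, log2) for the 37 named genes past the threshold in either fit and for the 7 glucocorticoid-induced genes with the largest differences among those that did not pass; the dashed line marks equal shifts. Selp, Icam1 and Vcam1 lie near 0 on the vertical axis, and Ddit4, Mt2 and Nfkbia lie near the line.

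Replicate 2 did not read like vehicle for every gene. Of the 29 named genes that were higher in either fit, its value was within the vehicle range for 14, above it for 12 and below it for 3. Its shift was over 0.5 times that of the other 4 arrays for 3 of them, Nfkbia, Slc10a6 and an uncharacterised gene, E230001N04Rik. Of the 8 genes that were lower, it was below every vehicle array for 5, each with over 0.5 times the shift of the other arrays. The 37 genes include those called without replicate 2, a choice that favours genes on which it differs from the others. An array like vehicle would also fall outside the range of 5 vehicle arrays for some genes. The share of all probe sets for which replicate 2 did so was not computed.

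Glucocorticoid-induced genes were higher by their median, 1 passed over all arrays, and on several of them, though not on Fkbp5, replicate 2 stood with the other IL-1b arrays. Ddit4 encodes REDD1, an inhibitor of mTORC1 that stress hormones induce in muscle. Centred Ddit4 read -0.77, -0.14, -0.78, 0.33 and -0.70 on vehicle replicates 1, 5, 7, 9 and 11, 1.66 on IL-1b replicate 2 and 1.56, 1.60, 1.30 and 1.05 on IL-1b replicates 4, 8, 10 and 12. All 5 IL-1b arrays were above all vehicle arrays, and replicate 2 was the highest of them. Ddit4 differed by 1.85 ± 0.40 over all arrays (adjusted p = 0.0465) and by 1.79 without replicate 2 (adjusted p = 0.0551), and passed in neither fit. It passed with array weights (adjusted p = 0.00428), whose estimate stopped before it converged. Mt2 encodes a metal-binding metallothionein. Centred Mt2 read -0.84, -0.37, 0.36, -0.39 and -0.71 on vehicle replicates 1, 5, 7, 9 and 11, 0.53 on IL-1b replicate 2 and 0.52, 0.75, 0.78 and 0.41 on IL-1b replicates 4, 8, 10 and 12. The groups again did not overlap. Mt2 differed by 0.99 ± 0.23 over all arrays (adjusted p = 0.0615) and did not pass with or without replicate 2. It passed after a further quantile normalization (adjusted p = 0.00166), without the 3 arrays of widest spread (adjusted p = 0.00652) and with array weights (adjusted p = 0.00103).

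Zfp36, the mRNA decay factor tristetraprolin, differed by 0.83 ± 0.16 over all arrays (adjusted p = 0.0173), with replicate 2 shifted by 0.74 from the vehicle mean and the other 4 by 0.86. Fkbp5, whose product binds the glucocorticoid receptor complex, differed by 0.56 ± 0.18 (adjusted p = 0.245), and replicate 2 was the lowest IL-1b array at -0.09, against 0.36, 0.40, 0.29 and 0.32 on the others. Of 32 measured glucocorticoid-induced genes, 1 passed both with and without replicate 2, Nfkbia, which NF-kB also induces, and no other passed in either fit. Over all arrays 26 differences were above 0 (median 0.20). Differences of 7721 of all 17831 probe sets were above 0. An unadjusted p under 0.05 over all arrays was found for 16 of the 32, against 10.6% of all probe sets. Every IL-1b array lay above every vehicle array for 6 of the 32, Ddit4, Nfkbia, Mt2, Mt1, Zfp36 and Cdkn1a, against 1.10% of all probe sets. The last was named after its values were seen. The mean of the list ran from -0.280 to -0.0458 on vehicle arrays, was 0.103 on replicate 2, and ran from 0.126 to 0.174 on the other 4. Vehicle arrays at 4 and 8 h ran from -0.577 to 0.131, a wider range that reaches that of the IL-1b arrays at 2 h. The FoxO atrophy list had 0 of 19 members past the threshold (6, or 31.6%, at an unadjusted p under 0.05, against 10.6% of all probe sets). Foxo1, a transcription factor of muscle wasting, differed by 0.23 ± 0.09, and Fbxo32, the ubiquitin ligase atrogin-1, by 0.24 ± 0.14.

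**Figure D4:**
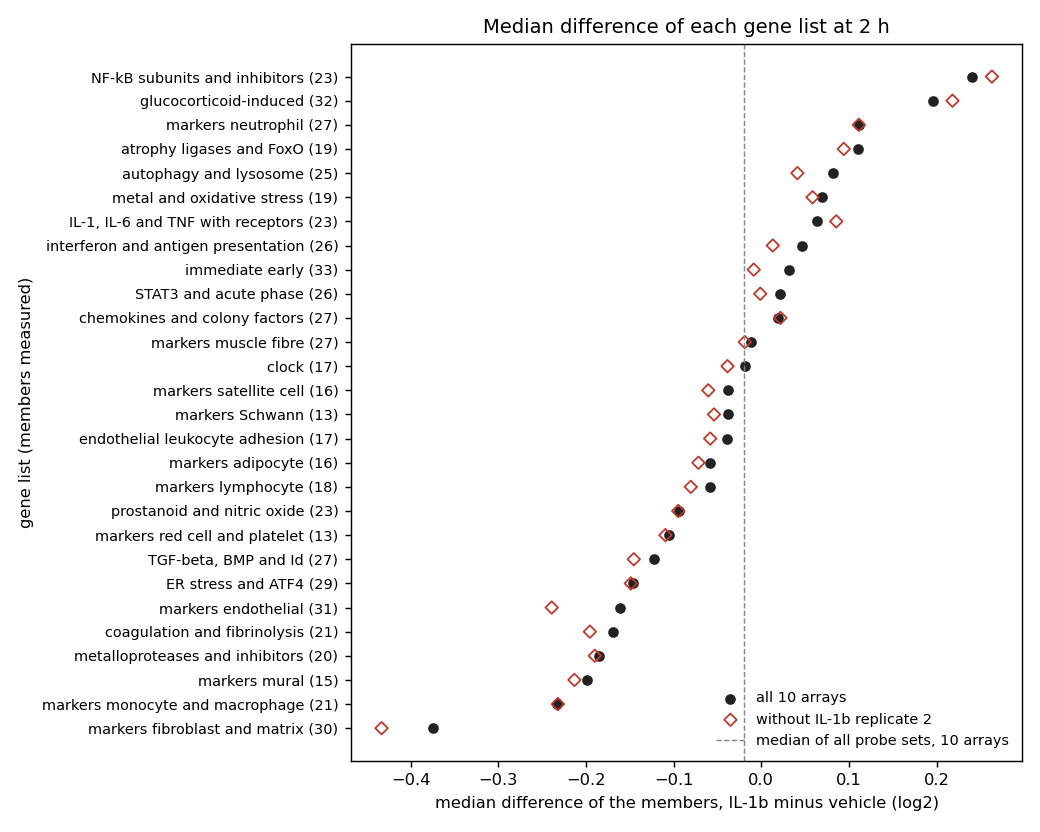
Median difference between IL-1b and vehicle at 2 h (horizontal axis, log2) over the measured members of each of the 28 gene lists (vertical axis, number of members in brackets), over all 10 arrays and without IL-1b replicate 2; the dashed line is the median of all probe sets. The NF-kB list lies highest at 0.24 and the fibroblast and matrix list lowest at -0.37.

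The lists of fibroblast, endothelial and macrophage genes were lower by their medians, with 1 member, Thbd, past the threshold over all arrays. Of 30 fibroblast and matrix genes, 29 differences were below 0 (median -0.37, against -0.02 over all probe sets), and 0 passed in either fit in limma (23 of 30, or 76.7%, at an unadjusted p under 0.05 over all arrays, against 10.6% of all probe sets). Col1a1 and Col3a1, fibrillar collagens, differed by -0.87 ± 0.37 and -0.63 ± 0.21, and Postn, a matricellular protein, by -0.67 ± 0.24 (adjusted p from 0.254 to 0.433). The list's mean ran from -0.0033 on vehicle replicate 11 to 0.507 on vehicle replicate 1, and from -0.148 to 0.0754 over the 5 IL-1b arrays. The 10 later vehicle arrays ran from -0.193 to 0.188, so the IL-1b arrays at 2 h lay within the range of vehicle at other times.

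Of 31 endothelial markers, 30 differences were below 0 (median -0.16). Thbd fell, 30 did not pass, and Ackr1 passed as higher without replicate 2. At an unadjusted p under 0.05 over all arrays there were 12 of the 31 (38.7%), against 10.6% of all probe sets. Sox18, a transcription factor of endothelium, differed by -0.66 ± 0.15 (adjusted p = 0.0615), Aplnr, the apelin receptor, by -0.64 ± 0.15 (adjusted p = 0.0662), and Kdr, the VEGF receptor VEGFR2, by -0.42 ± 0.12 (adjusted p = 0.188). For 4 of the 31, these 3 and Thbd, all IL-1b arrays were below all vehicle arrays, against 1.31% of all probe sets. The mean of the list ran from 0.0342 to 0.207 on vehicle arrays and from -0.164 to 0.0190 on IL-1b arrays, the highest being replicate 2. On the vehicle arrays at 4 and 8 h it ran from -0.0637 to 0.173. The part of endothelial cell number in the differences of Selp, Icam1 and Vcam1 was not tested.

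All 21 monocyte and macrophage markers had differences below 0 (median -0.23), as did 10110 of all 17831 probe sets. Of these markers 0 passed (7, or 33.3%, at an unadjusted p under 0.05, against 10.6% of all probe sets). C1qc, a complement chain of tissue macrophages, differed by -0.50 ± 0.14, Folr2, a folate receptor of resident macrophages, by -0.50 ± 0.14, and Csf1r, the receptor for the product of Csf1, by -0.40 ± 0.13 (adjusted p from 0.15 to 0.247). Their list mean ran from -0.0647 to 0.275 on vehicle arrays and from -0.214 to -0.110 on the IL-1b arrays, and on later vehicle arrays from -0.0969 to 0.223. In the coagulation list, 1 of 21 members passed, Thbd, and 17 differences were below 0 (median -0.17). At an unadjusted p under 0.05 over all arrays there were 10 of the 21 (47.6%), against 10.6% of all probe sets. Plau, the plasminogen activator urokinase, differed by -0.37 ± 0.08 (adjusted p = 0.0498), and Nos3, the endothelial nitric oxide synthase, by -0.30 ± 0.07 (adjusted p = 0.0929). Muscle fibre markers had a median of -0.01 with 0 of 27 past the threshold (2, or 7.41%, at an unadjusted p under 0.05, against 10.6% of all probe sets).

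The effects on Selp, Icam1, Vcam1, Nfkbia and Tnfaip3 were larger at 2 h than at 8 h. Differences at 4 and 8 h were measured on other arrays, each against vehicle of its own time. At 4 h, 0.578% of probe sets were higher and 0.269% lower, while the shares after 8 h were 1.02% and 1.07%. Of the 9 named genes that rose at 2 h over all arrays, 3 were also higher at 4 h, Selp and the uncharacterised E230001N04Rik and D17H6S56E-5, and 0 were higher at 8 h. Selp differed by 1.93 ± 0.37 at 4 h (adjusted p = 0.00305) and by -0.28 ± 0.43 at 8 h (adjusted p = 0.918). Icam1 differed by 0.28 ± 0.27 and -0.02 ± 0.31 at those times, and Vcam1 by 0.52 ± 0.24 and -0.36 ± 0.28. Tnfaip3 was lower after IL-1b at 8 h, by -0.65 ± 0.12 (adjusted p = 0.00114). Among the lower genes, Adam19 was also lower at 4 h (-0.45 ± 0.08, adjusted p = 0.000948).

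The effect at 2 h minus the effect at 8 h passed for 94 probe sets (0.527%), among them Selp, Icam1, Vcam1, Nfkbia and Tnfaip3 (adjusted p = 0.00549, 0.00713, 0.00383, 0.00415 and 2.71e-05). The effect at 2 h minus that at 4 h passed for 9 probe sets (0.0505%) and for 0 of the 9 named genes that rose over all arrays. Without replicate 2 it passed for 27 probe sets and for 6 of these genes, Selp, Icam1, Vcam1, Tnfaip3, Csf1 and Retnlg. These genes were chosen for their difference at 2 h, which enters both tests, so their number is a description. The effect on Lcn2 was 1.45 ± 0.27 after 2 h, 2.05 ± 0.27 after 4 h and 2.41 ± 0.31 after 8 h, and the differences of these effects from that at 2 h did not pass (adjusted p = 0.575 and 0.365). Foxo1 differed less at 2 h than at 4 h or 8 h, by -0.79 (adjusted p = 0.00682) and -0.99 (adjusted p = 0.000157). Fkbp5 differed less at 2 h than at 8 h, by -1.79 (adjusted p = 0.00053).

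**Figure D5:**
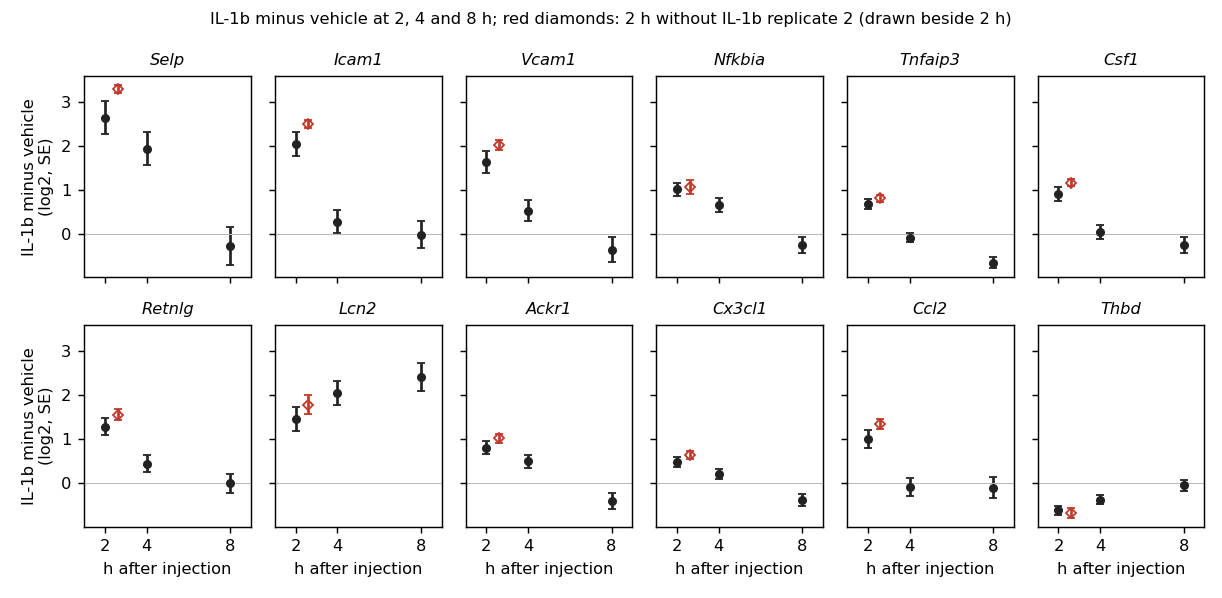
Difference between IL-1b and vehicle (vertical axis, log2, bars are standard errors) at 2, 4 and 8 h (horizontal axis) for 12 genes, with the 2 h value without IL-1b replicate 2 drawn beside as a red diamond. In time order, Selp was 2.64, 1.93 and -0.28, and Lcn2 was 1.45, 2.05 and 2.41.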

How the data were processed

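Total RNA of skeletal muscle was labelled with biotin and hybridised to Affymetrix whole-transcript arrays, per the labels. RMA and the build mm9 were used by the authors, per the submitters' processing notes, which name no versions. The deposited values, taken as log2 (the base is not given in the sources used here), cover 17831 probe sets on 28 arrays. Each probe set has a median of 0 within 1e-06, so the deposited values were centred and signal over background cannot be read. The number of arrays limits the precision. The platform annotation gave 1 symbol to 15620 probe sets, several to 1370 and none to 841. Genes with several probe sets were represented by the lowest probe set number.

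A model of 6 groups was fitted to all 28 arrays with limma 3.58.1 in R 4.3.3. Each adjusted p is limma's, corrected by Benjamini-Hochberg across the whole table, and calls were made under 0.01, the rate in the design text. Differences are IL-1b minus vehicle, with standard errors. The model was tested on simulated data. One 4 h title was read as replicate 18 by the pattern of the others.

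The arrays, genes and 28 gene lists (595 distinct genes measured) were chosen with earlier results of these data known. Named genes are those called at 2 h with or without IL-1b replicate 2, a panel of 28 genes (26 measured; Cebpd and Trim63 were not analysed here), and members of the lists with the largest differences, up to 4 per list. Cdkn1a was named after its values were seen. Other normalizations, spread estimates, thresholds and left-out arrays were tried. Promoter sequences are RefSeq's (GRCm38.p6). One result is not reported here.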

Additional observations from a re-analysis of the deposited data

Results flagged for a closer look

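In 65 named genes, 130 groups of 5 arrays were searched for an array whose gap to the nearest other exceeds Dixon's critical value of 0.71 of the group's range, which chance gives in about 1 in 20 groups. This was so in 20 groups, and in 17 of them the array was IL-1b replicate 2. These genes are not independent, and many of them were called without that array and not over all arrays. That array was also singled out by its adhesion genes, and Selp, Icam1 and Vcam1 are among the genes searched. The counts therefore cannot be set against the rate of 1 in 20. Replicate 2 stood below the other 4 IL-1b arrays, in centred log2 values, for Ackr1 (-0.07792), Bcl3 (0.06295), Casp4 (-0.007734), Ccl11 (-0.4411), Ccl2 (-0.1985), Ch25h (0.1658), Csf1 (-0.1868), Cx3cl1 (-0.103), Fkbp5 (-0.09168), Icam1 (0.1897), Lcn2 (-0.07238), Neurl3 (-0.07136), Selp (-0.2896) and Vcam1 (-0.04172). It stood above them for Hspa12b (0.2217), Pdxk (0.05736) and Col1a1 (0.3949). Vehicle replicate 1 stood below the other vehicle arrays for Nfkbia (-0.6836), vehicle replicate 11 stood below them for Csf1 (-0.2015), and IL-1b replicate 4 stood above the other IL-1b arrays for Cish (0.8597).

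The effect of IL-1b at 2 h exceeded that at 8 h on the log2 scale, by limma's contrast of the effects at an adjusted p under 0.01, for Ackr1 (1.21), Cx3cl1 (0.8781), Icam1 (2.061), Irak2 (0.5504), Nfkbia (1.264), Selp (2.919), Tnfaip3 (1.331) and Vcam1 (1.988). It was below that at 8 h for Fkbp5 (-1.787) and Foxo1 (-0.9911), and below that at 4 h for Foxo1 (-0.7946). IL-1b at 8 h has 3 arrays. What produced these differences was not tested.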

How the results depend on the processing

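The count of 13 probe sets over all arrays moved with most settings. It ran from 2 (without IL-1b replicate 10) to 40 (without IL-1b replicate 2) when 1 array was left out, with 3 without IL-1b replicate 8. It was 0 with the 2 h arrays alone, 26 with those arrays and without replicate 2, 7 with a trended and robust spread, 26 after a further quantile normalization, 8 without the 3 arrays of widest spread, 44 (29 higher, 15 lower) at a false discovery rate of 0.05 and 8 with a change of at least 1.75-fold. Limma's array weights gave 81, but their estimate stopped before it converged and put a weight of 28.0 on 1 array of IL-1b at 8 h. Weights estimated gene by gene, chosen after seeing that, gave 80 (48 higher, 32 lower). IL-1b replicate 2 had a weight of 0.57 by the default and 0.61 gene by gene, so neither weighting is independent of leaving it out. With either weighting 31 named genes that had not passed over all arrays did so, and 24 of them were also called without replicate 2. The other 7 were Bcl3, Ddit4, Mt2, Nos3, Plau, S100a9 and Zfp36. Quantile normalization added 11, 10 of them also called without replicate 2 and the other Mt2, which leaving out the 3 widest arrays added too. Centring arrays on their median, testing only probe sets with 1 symbol, and the analysis of variance with a 1.75-fold change stayed within 1.5 times the main count. The 40 calls without replicate 2 ran from 25 (without IL-1b replicate 8) to 49 (without vehicle replicate 11) when 1 more array was left out and were 110 (52 higher, 58 lower) after quantile normalization. The 9 differences between 2 h and 4 h became 27 without replicate 2. Over all arrays, the trended and robust spread ended the calls of Adam19, Csf1, D17H6S56E-5, Thbd and Tnfaip3. Without the 3 widest arrays Adam19, Csf1, E230001N04Rik, Sertad4 and Thbd lost theirs, and quantile normalization ended those of Csf1 and E230001N04Rik. With the 2 h arrays alone all 12 named genes lost their call. Cxcl1, not called, ran from -0.0365 to 0.0450 with 1 array left out. No other named gene changed sign in any setting. The cause of these movements was not tested beyond the arrays left out. No paired analysis was possible because the vehicle and IL-1b groups at 2 h share no replicate number.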

Other observations

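Of the 28 lists, those not described above had few members past the threshold. The metalloprotease list had 1 of 20 lower over all arrays, Adam19 (median -0.18), and 1 higher without replicate 2, Mmp8. The TGF-beta, BMP and Id list had 1 of 27 lower, Sertad4 (median -0.12). Of all probe sets, 0.0168% were lower over all arrays. An unadjusted p under 0.05 was found for 9 of the 20 and 8 of the 27, against 10.6% of all probe sets. The STAT3 and acute phase list had 0 of 26 past the threshold over all arrays (5, or 19.2%, at an unadjusted p under 0.05). Its member Lcn2 passed without replicate 2. The ER stress and ATF4 list had 0 of 29 past the threshold (9, or 31.0%, at an unadjusted p under 0.05, against 10.6% of all probe sets) with 24 differences below 0 (median -0.15), and the list mean ran from -0.0163 to 0.144 in vehicle and from -0.0714 to 0.0526 after IL-1b. The clock list (17 genes), the immediate early list (33), the autophagy and lysosome list (25), the metal and oxidative stress list (19) and the prostanoid and nitric oxide list (23) had 0 members past limma's threshold in either fit, and 0, 7 (21.2%), 5 (20%), 5 (26.3%) and 3 (13.0%) at an unadjusted p under 0.05 over all arrays. On the immediate early list the mean was 0.318 on IL-1b replicate 2, against 0.0038 to 0.128 on the other 4 IL-1b arrays and -0.0617 to 0.287 on vehicle arrays. The lists of lymphocyte, red cell and platelet, mural, adipocyte and Schwann markers also had 0 past the threshold, and 0, 3 (23.1%), 5 (33.3%), 0 and 0 at an unadjusted p under 0.05. Of 16 satellite cell markers, Vcam1, which the adhesion list also holds, was the 1 that passed. An unadjusted p under 0.05 over all arrays was found for 4 of the 16.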
